A study of Mus musculus with 16 samples.

Results

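The immediate early genes described here were Fos, Fosb, Jun, Junb, Egr1, Atf3, Klf4, Ier2, Nr4a1 and Dusp1. They were found by their symbol in the platform annotation of an Illumina MouseRef-8 v2.0 bead array, which gave 12 probes for the 10 genes among 25697 probes for 16593 symbols. RNA came from the ventricles of 16 mice, each array taken as 1 mouse, in 4 groups of 4: young wild-type (WT), young BACHD, aged WT and aged BACHD. The labels say young and old, and the methods give 3 mo and 15 mo. BACHD mice are a model of Huntington's disease that carry full-length human mutant huntingtin on a bacterial artificial chromosome, so every cell type that the huntingtin promoter serves can express it. All mice were on the C57BL6/J background, the WT mice were littermate controls, and no group was given a drug.

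Immediate early genes are transcribed within minutes of a stimulus from factors already present in the cell, without new protein synthesis. Growth factors, adrenergic signals, stretch and ischaemia all induce them in heart muscle through MAP kinases, serum response factor (SRF) and CREB, and their short-lived mRNAs then fall back to the resting level. Fos, Fosb, Jun and Junb encode subunits of the AP-1 dimer. Egr1, Klf4 and Nr4a1 encode a zinc finger factor, a Krüppel-like factor and an orphan nuclear receptor. Atf3 encodes a stress-induced factor of the ATF/CREB family, Ier2 a small nuclear protein, and Dusp1 a phosphatase that switches MAP kinases off.

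The promoters of 5 members are shown because the letters that CREB and AP-1 proteins are known to bind differ among them. Each line gives the 200 bases before the transcription start, from RefSeq on GRCm38.p6. Capitals mark matches to the short CRE site TGACG on either strand (printed as CGTCA where it lies on the other strand), the full CRE TGACGTCA, or the CRE-like AP-1 site TGANNTCA. The regions are Fos at chr12:85473690-85473889, plus strand, Jun at chr4:95052223-95052422, minus strand, Junb at chr8:84978749-84978948, minus strand, Atf3 at chr1:191183334-191183533, minus strand, and Dusp1 at chr17:26508473-26508672, minus strand.
Fos: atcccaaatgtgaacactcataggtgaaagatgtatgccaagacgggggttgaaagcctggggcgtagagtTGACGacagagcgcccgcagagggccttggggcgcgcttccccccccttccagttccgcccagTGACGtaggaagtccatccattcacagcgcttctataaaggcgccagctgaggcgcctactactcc
Jun: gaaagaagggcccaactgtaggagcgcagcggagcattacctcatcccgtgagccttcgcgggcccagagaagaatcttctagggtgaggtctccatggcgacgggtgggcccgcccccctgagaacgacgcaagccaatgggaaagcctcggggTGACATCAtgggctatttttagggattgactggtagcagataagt
Junb: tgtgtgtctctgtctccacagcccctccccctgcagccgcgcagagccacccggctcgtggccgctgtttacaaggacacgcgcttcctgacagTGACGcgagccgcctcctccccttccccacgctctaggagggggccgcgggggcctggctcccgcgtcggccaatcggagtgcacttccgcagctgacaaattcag
Atf3: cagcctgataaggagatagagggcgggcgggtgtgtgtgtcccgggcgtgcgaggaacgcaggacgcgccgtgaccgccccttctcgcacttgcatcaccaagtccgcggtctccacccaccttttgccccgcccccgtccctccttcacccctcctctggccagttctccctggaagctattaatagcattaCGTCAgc
Dusp1: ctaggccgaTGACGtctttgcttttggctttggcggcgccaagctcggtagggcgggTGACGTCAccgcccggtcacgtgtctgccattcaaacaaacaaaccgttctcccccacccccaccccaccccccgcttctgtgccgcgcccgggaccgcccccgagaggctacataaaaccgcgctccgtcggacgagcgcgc

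RefSeq promoter windows from 250 bases before to 50 after the start were matched for 8 of the 10 members, all but Egr1 and Ier2. The short CRE site, searched on both strands, was found in 7 of these 8 (all but Jun) and in 20.8% of 32851 promoters of the same length. Fos had it at -129 and at -66, counting the start base as 0, and Nr4a1 had it at 4 places. The full CRE, which contains the short site on both strands, was found in Dusp1 at -143 and in 1.79% of all promoters. TGANNTCA, which also matches the full CRE, was found in Jun at -45 and 2 and in Dusp1, against 14.1% of all promoters. The AP-1 site TGANTCA was found in no member and in 7.81% of all promoters, and the CArG box of SRF in no member window and in 1.63% of all. A match describes letters in the window and is no evidence of binding.

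**Figure D1:**
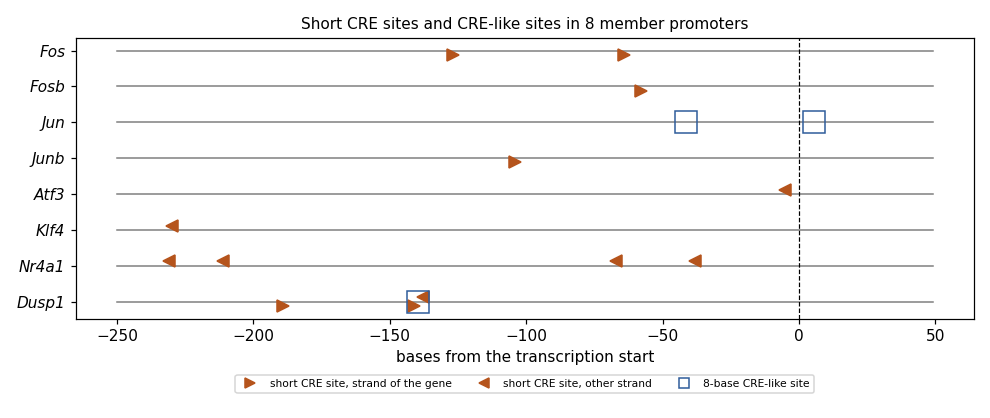
Positions of the short CRE site (triangles, pointing along the strand of the match) and of the CRE-like site TGANNTCA (squares) in the promoters of 8 members, in bases from the transcription start. Fos, Fosb, Junb, Atf3, Klf4, Nr4a1 and Dusp1 hold short sites, and Jun holds CRE-like sites only.

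Values are normalized log2 expression after background correction, in which a difference of 1 is a doubling, and a probe was detected where its detection p-value was below 0.01. Junb, Jun, Egr1, Dusp1 and Klf4 were detected on all 16 arrays, Atf3 on 12 and Fos on 10. The probes of Fosb, Ier2 and Nr4a1 were detected on 0 of 16 arrays, so their values lie at background and give no fold. Over the 16 arrays the mean of Dusp1 was 11.64, that of Egr1 10.09, Jun 8.15, Junb 7.60, Klf4 7.16, Fos 6.44 and Atf3 6.09. These levels come from different probes and were not set against each other.

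Cardiomyocyte markers were high on every array, at a list mean of 12.44 to 12.68 over 6 measured genes, as the labelled tissue calls for. Atrial markers (Sln, Myl7, Myl4, Bmp10 and Nr2f2) had a list mean of 5.16 to 5.46 on 12 arrays, but of 6.62 and 7.95 on aged WT arrays 2 and 4, and of 6.71 and 6.38 on aged BACHD arrays 3 and 4. Median signal ran from 132.7 to 156.8, and 9780 to 10755 probes were detected on an array. In bulk ventricle, fewer cells of a type and less RNA per cell cannot be told apart. No source used here states which chip held each array.

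Fos is the prototype immediate early gene. In young WT hearts Fos was 6.91, 5.75, 7.53 and 5.65 in replicates 1 to 4, and in young BACHD hearts 7.15, 6.47, 7.85 and 6.67. In aged WT hearts it was 7.61, 8.55, 6.16 and 4.94, and in aged BACHD hearts 5.51, 5.47, 5.40 and 5.35. Fos was therefore detected in all 4 young BACHD hearts and in none of the 4 aged BACHD hearts, while 3 of 4 hearts in each WT group had it above background. The aged WT hearts spread over 3.61 log2 units (SD 1.59), a spread above that of 99.61% of detected probes in that group. The aged BACHD values (SD 0.07) had detection p-values of 0.0163 to 0.0201, which missed the cut, and they were above the 4.94 of aged WT replicate 4.

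**Figure D2:**
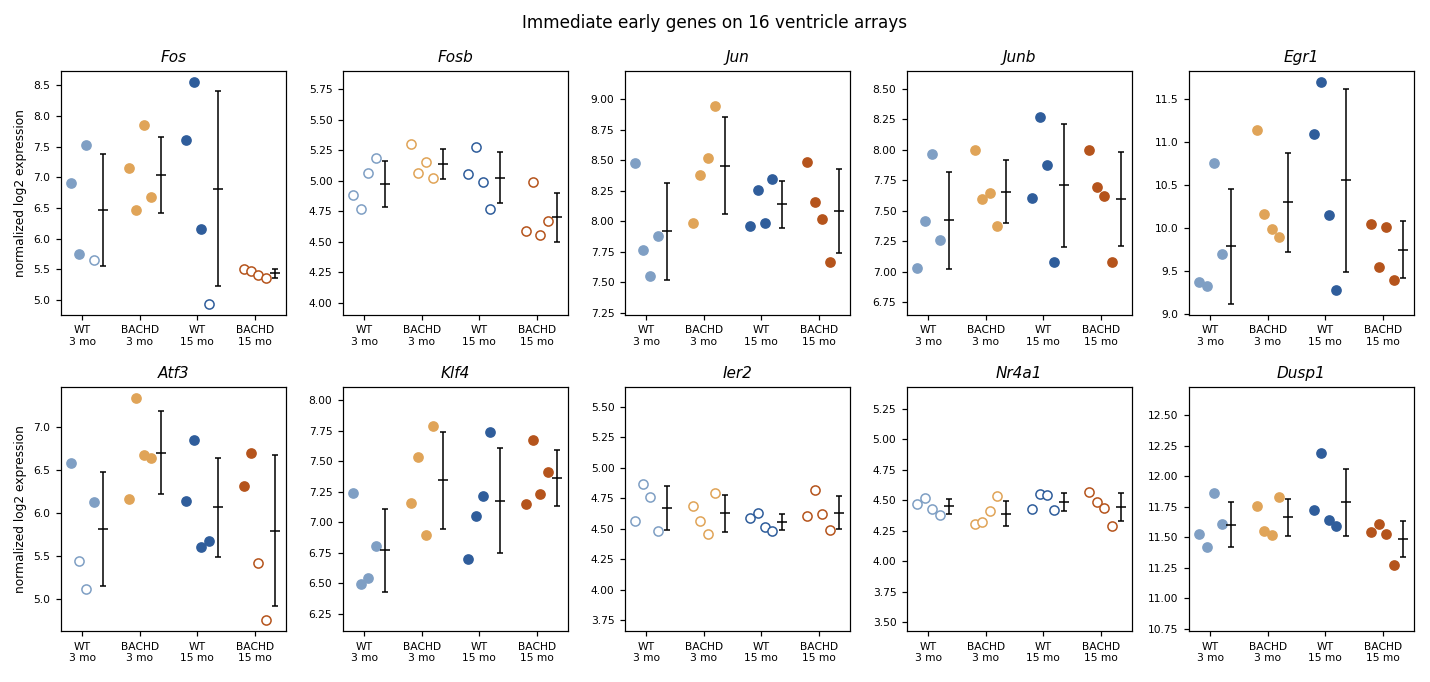
Normalized log2 expression of the 10 genes on each of the 16 arrays, by genotype and age. Filled circles are detected and open circles not detected, the horizontal tick and bar give the mean ± SD of 4 arrays, and each panel has its own axis. The 4 aged BACHD hearts are at 5.35 to 5.51 for Fos, all open, whereas the 4 young BACHD hearts are at 6.47 to 7.85.

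Between 3 and 15 mo in BACHD hearts, the measured log2 difference of Fos was -1.60 ± 0.61 (SE). Taking the lowest detected signal as the ceiling for the aged hearts gave at least 2.72-fold on this scale, but the size depended on the background step, with log2 differences of -0.66 without background correction and -1.11 with an offset of 50. The groups did not overlap (exact permutation p = 0.0286, two-sided, the smallest that 4 against 4 arrays allow). The same held for 8.9% of all probes. In limma over all groups the Fos difference did not pass the methods' threshold of an unadjusted P below 0.005 (adjusted p = 0.2). When only the 8 BACHD arrays entered the fit, it passed (adjusted p = 0.0268), but that fit takes its error in part from the narrow spread of the 4 aged BACHD values, none of them detected. In WT hearts the same age comparison gave 0.36 ± 0.61, with an adjusted p of 0.904.

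Within aged hearts Fos differed by -1.38 ± 0.61 between BACHD and WT, which did not pass the threshold (adjusted p = 0.789 in limma, exact permutation p = 0.143). The groups overlapped, since aged WT replicate 4 (4.94) was below every aged BACHD heart. Without that array the difference was -2.01, past the threshold (adjusted p = 0.387). Leaving out the lowest aged WT value could only widen the difference. Without aged WT replicates 1 and 2, the hearts with the highest Fos, an alternative chosen after their values were seen, it was -0.12 (adjusted p = 0.996). Without replicate 2 alone it was -0.80, and without background correction, over all arrays, -0.68. At 3 mo the difference was 0.58 ± 0.61 (adjusted p = 0.98).

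Fosb, the Fos paralog, was at background throughout, from 4.56 to 5.30 over the 16 arrays. It was 5.30, 5.06, 5.15 and 5.02 in young BACHD hearts and 4.58, 4.99, 4.56 and 4.67 in aged BACHD hearts, groups that did not overlap. In limma this was the only member called at P below 0.005 in any comparison, lower with age in BACHD by -0.43 ± 0.12 (adjusted p = 0.0709, exact permutation p = 0.0286). Because the probe was detected on no array, the value says only that the brightness of a background-level spot differed. The call was lost without any 1 of BACHD young replicates 1 and 3 and BACHD aged replicates 1, 3 and 4, with adjusted p-values from 0.133 to 0.175. It was also lost with the replicate block (adjusted p = 0.107), with trended and robust variances (adjusted p = 0.121) and when the 4 aged arrays with raised atrial markers were left out (adjusted p = 0.282).

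Jun, the main partner of Fos, was detected in every heart. It was 8.48, 7.76, 7.55 and 7.88 in young WT hearts against 7.98, 8.37, 8.51 and 8.95 in young BACHD hearts. Only young WT replicate 1 lay among the BACHD values. The difference was 0.54 ± 0.22 (95% interval 0.07 to 1.01, adjusted p = 0.969, exact permutation p = 0.0857). Without young WT replicate 1, the array in the overlap, the difference was 0.72, past the threshold (adjusted p = 0.836). That array had the highest young WT value, so leaving it out could only widen the difference. It was 0.37 without young BACHD replicate 4 and 0.38 without background correction. At 15 mo WT hearts had 7.96, 8.25, 7.99 and 8.35 and BACHD hearts 8.49, 8.16, 8.02 and 7.66, a difference of -0.05 with a 95% interval of -0.52 to 0.42.

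Junb, which forms AP-1 dimers that often restrain those of Jun, ran from 7.03 to 8.27 with all groups overlapping. BACHD minus WT was 0.23 at 3 mo (95% interval -0.30 to 0.77) and -0.11 at 15 mo (-0.65 to 0.43).

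Egr1, a target of SRF and the ERK pathway, was the most variable of the genes detected on every array. In aged WT hearts it was 11.09, 11.70, 10.15 and 9.27, and in aged BACHD hearts 10.05, 9.54, 10.01 and 9.39. The order of the aged WT hearts was that of Fos: replicate 2 highest, then 1, 3 and 4. In young WT hearts Egr1 was 9.37, 9.32, 10.76 and 9.69, and in young BACHD hearts 11.14, 10.16, 9.99 and 9.89. BACHD minus WT was 0.51 ± 0.45 at 3 mo (adjusted p = 0.973) and -0.81 ± 0.45 at 15 mo (adjusted p = 0.876), and the second became 0.04 without aged WT replicates 1 and 2.

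Klf4, a factor of endothelial and smooth muscle cells that also answers stress in cardiomyocytes, was 7.24, 6.49, 6.54 and 6.80 in young WT and 7.16, 7.54, 6.89 and 7.79 in young BACHD hearts. The difference on this probe was 0.58 ± 0.23 (95% interval 0.09 to 1.07, adjusted p = 0.969, exact permutation p = 0.0857). The other Klf4 probes, detected on 16 and 13 arrays, gave 0.28 in both cases (adjusted p = 0.969 and adjusted p = 0.979). At 15 mo the first probe gave 0.19 (95% interval -0.30 to 0.68). Nr4a1, which is induced by adrenergic stimulation, stayed at background from 4.29 to 4.57 on all arrays, and its activity could not be read from this probe.

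Atf3, which rises with cell stress and in overloaded hearts, was detected on 12 arrays. It was 6.58, 5.44, 5.11 and 6.12 in young WT hearts, where 2 of 4 were detected, and 6.16, 7.33, 6.67 and 6.63 in young BACHD hearts, where all 4 were. Only young WT replicate 1 exceeded a BACHD heart. BACHD minus WT was 0.89 ± 0.42 (95% interval -0.01 to 1.78, adjusted p = 0.969, exact permutation p = 0.0571), and 0.35 without background correction. At 15 mo WT hearts had 6.13, 6.85, 5.60 and 5.67 and BACHD hearts 6.31, 6.69, 5.42 and 4.76, a difference of -0.27 (95% interval -1.16 to 0.63). Between 3 and 15 mo Atf3 differed by -0.90 ± 0.42 in BACHD hearts (adjusted p = 0.324, exact permutation p = 0.2), and by -0.20 once the 4 aged arrays with raised atrial markers were left out, an alternative added after seeing the data.

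Ier2 lay between 4.45 and 4.87 on all arrays, at background. Dusp1 was detected in every heart and ran from 11.28 to 12.19. In aged WT hearts it was 11.72, 12.19, 11.64 and 11.59, and in aged BACHD hearts 11.55, 11.61, 11.53 and 11.28, with BACHD replicate 2 above WT replicate 4 only. The difference was -0.30 ± 0.13 (95% interval -0.58 to -0.02, adjusted p = 0.789, exact permutation p = 0.0571). At 3 mo it was 0.06, with a 95% interval of -0.22 to 0.34.

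Counted over the 10 members, BACHD was above WT for 8 at 3 mo (all 7 detected ones) and for 2 at 15 mo, with median log2 differences of 0.37 and -0.19. Of the 10960 probes detected on at least 4 arrays, 52.2% were above WT at 3 mo and 50.6% at 15 mo. In limma 0 members were called at 3 mo, where 0.483% of all probes were, and 2 of 10 had P below 0.05 (Jun and Klf4), against 4.88% of all probes. At 15 mo 0 were called, against 0.895% of all probes, and 3 of 10 had P below 0.05 (Fos, Fosb and Dusp1), against 6.12% of all probes. The groups overlapped for every member at both ages, whereas 2.88% of all probes did not overlap at 3 mo and 3.21% at 15 mo. The members share arrays and are not independent of each other, so these counts carry no test.

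With age, 9 members had a positive difference in WT hearts (median 0.23) and 7 a negative one in BACHD hearts (median -0.27). Of the probes detected on at least 4 arrays, 50.5% were positive in each genotype. Without aged WT replicates 1 and 2, an alternative chosen after their Fos values were seen, 4 WT differences turned negative. They were -0.91 for Fos, -0.10 for Fosb, -0.08 for Egr1 and -0.18 for Atf3, and the other members kept their sign. In WT 0 members were called and 0 had groups that did not overlap, against 2.77% and 6.81% of all probes. In BACHD 1 member was called, Fosb, against 5.15% of all probes, and 2 of 10, Fos and Fosb, had groups that did not overlap, against 8.9%. The 2 age comparisons and the 2 genotype comparisons share arrays.

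**Figure D3:**
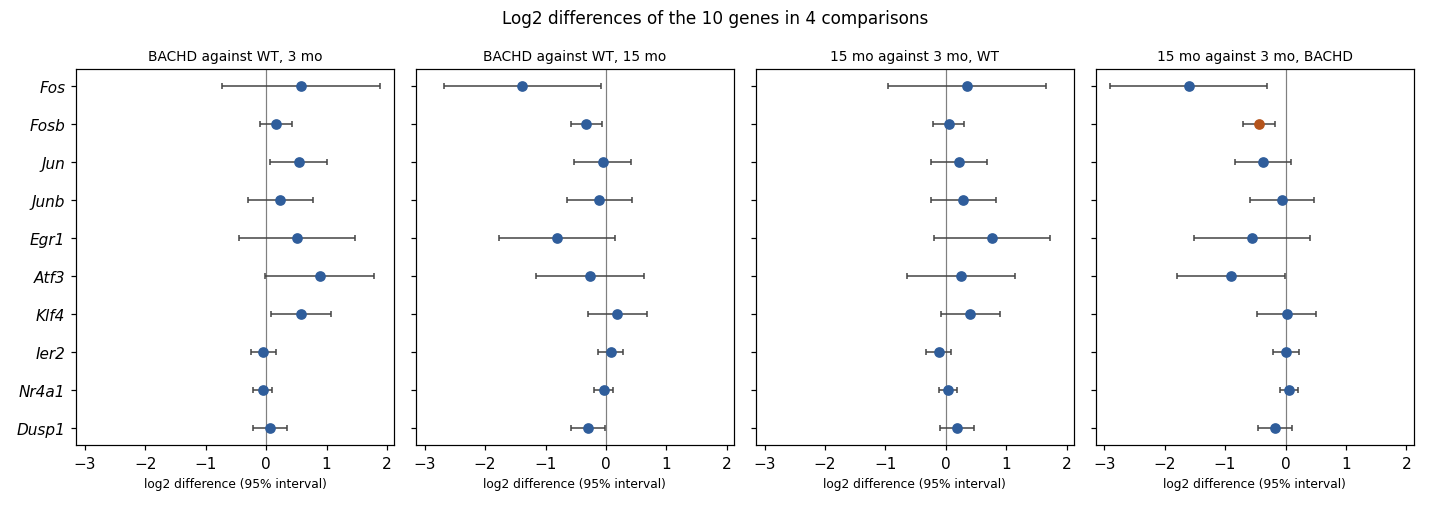
Log2 difference and 95% interval of each of the 10 genes in 4 comparisons, from the fit over all 16 arrays. The orange point, Fosb with age in BACHD, is the only one with P below 0.005. At 3 mo the intervals of Jun and Klf4 lie above 0, and at 15 mo those of Fos, Fosb and Dusp1 lie below it.

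The difference of the genotype effect between ages was itself tested. It was negative for 8 of 10 members and all 7 detected ones, with a median of -0.44. For Fos it was -1.96 ± 0.87 (adjusted p = 0.802), for Egr1 -1.32 ± 0.64 (adjusted p = 0.816), for Atf3 -1.15 ± 0.60 (adjusted p = 0.826) and for Jun -0.59 ± 0.31 (adjusted p = 0.827). Without the 4 aged arrays of raised atrial signal these became -0.25 for Atf3 and -0.19 for Jun, while Fos was -1.97 and Egr1 -1.33. The 95% interval excluded 0 for Fos (-3.80 to -0.11) and reached 0.04 for Egr1. None of the members was called, against 0.611% of all probes. Without aged WT replicate 4, Fos (-2.58, adjusted p = 0.565) and Fosb (-0.57, adjusted p = 0.6) passed the threshold. That array had the lowest aged WT value of both genes, so leaving it out could only make these values more negative.

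Across the 16 arrays, Fos was compared with each of the other 9 members by permutation tests, adjusted over the 9. Fos and Egr1 rose and fell together (Pearson r = 0.769, adjusted permutation p = 0.00387, and Spearman rho = 0.647, adjusted p = 0.0377). On deviations from the group means r was 0.782, and without the 2 arrays farthest from the median of Fos it was 0.75. Dusp1 had r = 0.679 with Fos (adjusted permutation p = 0.00789) and rho = 0.482 (adjusted p = 0.154), with 0.607 on deviations and 0.657 without the 2 farthest arrays. Fosb had r = 0.714 (adjusted permutation p = 0.00789) and rho = 0.712 (adjusted p = 0.0247), with 0.524 on deviations and 0.626 without the 2 farthest arrays, although its probe is at background.

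Jun, by contrast, had r = 0.111 with Fos (adjusted permutation p = 0.872), and Klf4 had r = -0.396 (adjusted permutation p = 0.208). The 21 pairs of the 7 detected members were then computed after these values were seen, and adjusted over the 21. Jun and Atf3 had r = 0.718 (adjusted permutation p = 0.0103) and rho = 0.721 (adjusted p = 0.0267), with 0.623 on deviations from the group means and 0.707 without the 2 farthest arrays. Egr1 had r = 0.797 with Junb (adjusted permutation p = 0.00273, rho = 0.782) and r = 0.791 with Dusp1 (adjusted permutation p = 0.00273, rho = 0.656), with 0.694 for Junb and 0.619 for Dusp1 without the 2 farthest arrays. In these pairs the 2 farthest arrays were set by the median of Jun (with Atf3), of Junb (with Egr1) and of Egr1 (with Dusp1). Egr1 and Jun had r = -0.112. Of the 21 pairs 15 had a positive r, and 6 had an adjusted permutation p under 0.05 for r. Among those 6, Dusp1 with Fos and Dusp1 with Junb did not reach it by rho (adjusted permutation p = 0.178 each). The pairs share genes and arrays, and the share among pairs of other probes was not computed, so these counts carry no test.

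**Figure D4:**
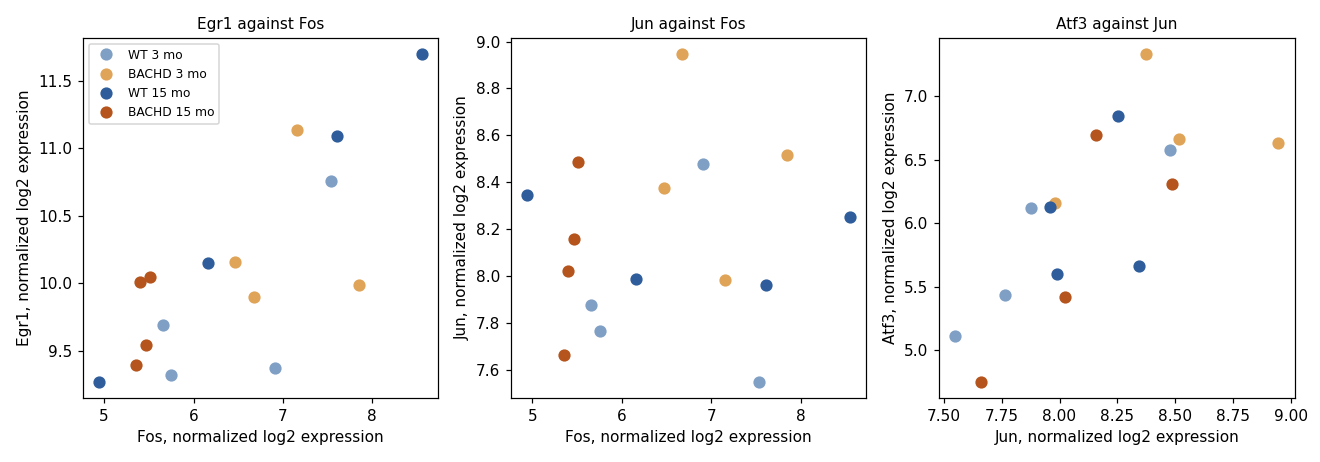
Normalized log2 expression of Egr1 against Fos, of Jun against Fos and of Atf3 against Jun, with 1 point for each of the 16 arrays coloured by group. Egr1 follows Fos (r = 0.769) and Atf3 follows Jun (r = 0.718), whereas r was 0.111 for Jun and Fos.

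A mean of z-scores was taken over the 10 members, in which the background-level Fosb, Ier2 and Nr4a1 weigh as much as the others. By this mean aged WT replicate 2 was the highest array (1.24) and aged BACHD replicate 4 the lowest (-1.17). Those arrays also had raised atrial markers (list means of 6.62 and 6.38), but so did aged WT replicate 4 and aged BACHD replicate 3, at -0.49 and -0.44. The part of the atrial markers in these values was not tested beyond leaving the 4 arrays out: Fos then differed by -1.39 between aged BACHD and WT and by -1.55 with age in BACHD, against -1.38 and -1.60 with them. Other members moved more. Between aged BACHD and WT, Atf3 went from -0.27 to 0.63 and Jun from -0.05 to 0.35, and with age in BACHD Jun went from -0.37 to -0.13. Among 10343 probes of other genes that had a symbol and were detected on at least 4 arrays, those most like the mean z-score over 16 arrays were of Lasp1 (r = 0.819), Lrrc1 (0.802), Slc38a2 (0.777), Unc119b (0.767), Mapk14 (0.761) and Nav1 (0.759), picked as the highest of many.

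**Figure D5:**
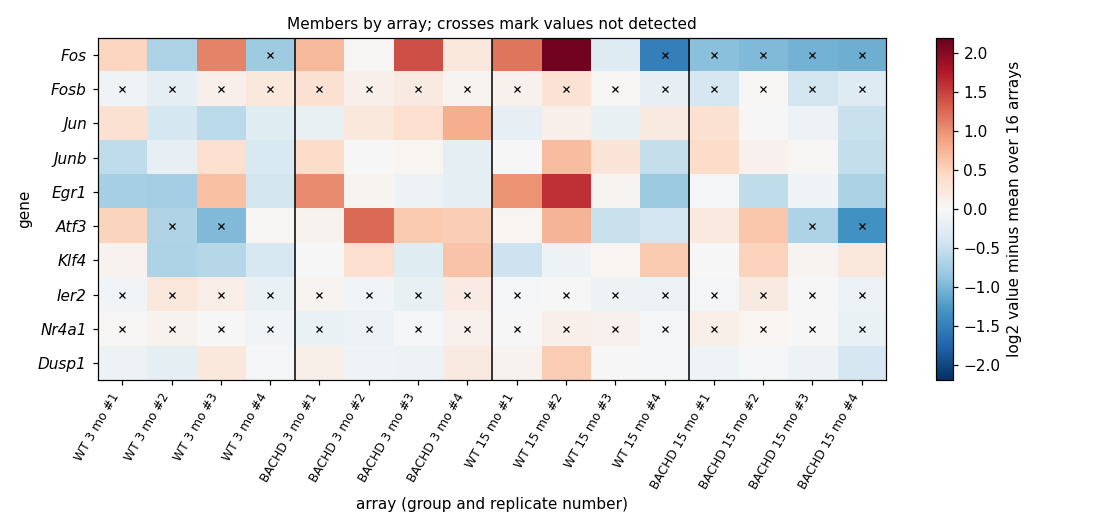
Log2 value of each gene on each array minus the mean of that gene over the 16 arrays, with arrays in groups and crosses on values not detected. Fos and Egr1 both have their highest value on aged WT replicate 2, and Fos carries a cross on all 4 aged BACHD arrays.

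Other genes of the early response were read from lists. Of 11 measured AP-1 and ATF/CREB factors other than the members, 10 had a positive BACHD difference at 3 mo and 4 at 15 mo, with 0 called at either age. Those with the smallest P were Jund, the third Jun family gene, at 3 mo (0.28, adjusted p = 0.969) and Creb1 at 15 mo (-0.45, adjusted p = 0.649, detected on 0 arrays). With age in BACHD 2 were called lower, where 5.15% of all probes were called. Crem, whose inducible product ICER represses CREB targets, differed by -1.01 (adjusted p = 0.00722), and by -0.54 in WT (adjusted p = 0.228). Jund differed by -0.33 (adjusted p = 0.0897), and by -0.04 in WT. The genotype effect on neither was called different between ages (adjusted p = 0.827 for Crem and adjusted p = 0.815 for Jund).

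Of 11 other EGR, KLF and NR4A factors, 8 were positive at each age with medians of 0.10 and 0.14, and 0 were called in any comparison. Nr4a2, a relative of Nr4a1 detected on 9 arrays, had the smallest P at 3 mo (0.44, adjusted p = 0.969). Nab1, a corepressor of EGR factors, had it at 15 mo (0.28, adjusted p = 0.77). Of 31 other early response genes 0 were called between genotypes. With age in BACHD 3 were called lower and 1 higher, where 5.15% of all probes were called. Nfil3, a basic leucine zipper factor, differed by -1.03 (adjusted p = 0.0625), Ccn1, a secreted matrix protein, by -0.80 (adjusted p = 0.0715), Hbegf, a ligand of the EGF receptor, by -0.36 (adjusted p = 0.0581), and Csrnp1 by 0.85 (adjusted p = 0.0922). In WT the same differences were -0.16, 0.01, -0.27 and 0.28, none called, and the difference between ages was called for none of the 4.

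Of 11 measured phosphatases and Sprouty inhibitors, 5 were positive at 3 mo and 6 at 15 mo. Dusp8, which acts on JNK and p38, had the smallest P at both ages, with 0.39 at 3 mo (adjusted p = 0.969) and -0.40 at 15 mo (adjusted p = 0.757). Its genotype effect differed between ages by -0.79 (past the threshold, adjusted p = 0.759). Of 12 upstream kinases and SRF factors 9 were positive at 3 mo and 6 at 15 mo. Mapk8, which encodes the JNK1 kinase that phosphorylates Jun, differed by 0.19 at 3 mo (adjusted p = 0.969) and differed by -0.20 at 15 mo (adjusted p = 0.757). With age in BACHD Mapk8 fell by 0.38 (adjusted p = 0.0196), and the genotype effect differed between ages by -0.39 (past the threshold, adjusted p = 0.759). Mapk14, the p38 alpha kinase, differed by -0.25 at 15 mo (adjusted p = 0.709).

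Heat shock genes are induced by the same stresses through another factor, HSF1. Of 11 measured, 9 were positive in BACHD at 3 mo and 5 at 15 mo, with 0 called. With age 10 were negative in each genotype, 3 called lower in BACHD and 0 in WT. Of all probes 5.15% were called with age in BACHD and 2.77% in WT. Hspa1a, which the study itself picked from these arrays, differed by 2.32 at 3 mo (not past the threshold, adjusted p = 0.969) and by -3.07 with age in BACHD (adjusted p = 0.0348). In the study's own processing Hspa1a was higher in BACHD at 3 mo and passed the same threshold. The study also reported the increase by quantitative PCR. Hsph1 fell with age in BACHD by 1.30 (adjusted p = 0.00811), and Hspa8 fell by 0.23 (adjusted p = 0.0863). In WT with age Hspa1a differed by -0.46, Hsph1 by -0.64 and Hspa8 by -0.12, and the genotype effect was called different between ages for none of them. The mean of the list was 10.24 to 10.88 in young BACHD hearts and 10.01 to 10.18 in aged BACHD hearts, against 10.05 to 10.57 and 10.04 to 10.28 in WT. Of 5 reference genes 0 were called in any comparison.

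Markers of other cells moved with age in BACHD hearts as well, where 5.15% of all probes were called. Of 4 measured neutrophil genes all had a positive difference and S100a8 was called higher (2.52, adjusted p = 0.0569), and of 3 macrophage genes all were negative with C1qa (-0.46) and C1qb (-0.59) called. In WT with age S100a8 differed by 0.87, C1qa by -0.21 and C1qb by -0.21, none called. The genotype effect was called different between ages for none of S100a8, C1qa and C1qb. Csf3r, a neutrophil gene, was detected on 1 array. The neutrophil list mean was 5.19 to 5.96 in young and 6.22 to 8.40 in aged BACHD hearts, and the macrophage list mean 9.14 to 9.41 and 8.73 to 9.09. In WT hearts the neutrophil list mean was 5.42 to 7.76 in young and 6.35 to 7.10 in aged. The WT macrophage list mean was 8.87 to 9.59 and 9.07 to 9.31. The fibroblast gene Col1a1 (-1.25, adjusted p = 0.0255) and the muscle gene Myl1 (-1.05, adjusted p = 0.000656) were also called lower, and differed by -0.81 and -0.40 in WT. Of 4 measured skeletal muscle genes 1 was positive with age in BACHD, Myh4 (0.09, detected on 0 arrays). The genotype effect differed between ages by -0.66 for Myl1 and by 0.26 for Myh4. Both passed the threshold (adjusted p = 0.759 each). Of 5 fibroblast genes 3 were positive with age in BACHD, with a list median of 0.03. Of the 5 atrial, 6 endothelial, 6 cardiomyocyte, 3 red blood cell and 2 adipocyte genes measured, 0 were called in any comparison, and the smooth muscle gene Myh11 was called higher with age in WT (0.82, adjusted p = 0.0617) and differed by 0.56 in BACHD (adjusted p = 0.132), with no call for the difference (adjusted p = 0.919). Their part in the lower Fos, Crem and heat shock values was not tested.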

How the data were processed

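Ventricle RNA was hybridised to 16 arrays, 4 per group, each taken as 1 mouse, and groups and replicate numbers came from the sample labels. The authors extracted bead signals with BeadStudio (version not given in the sources used here) and deposited unnormalized signal intensity with a detection p-value for each of 25697 probes. The authors also deposited log2 values, which recomputation showed to be the log2 of the intensity after quantile normalization (largest gap 5e-09).

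From the intensity, normexp background correction (offset 16, with the detection p-values standing in for negative control beads), quantile normalization and log2 were run with neqc of limma 3.58.1 in R 4.3.3. All probes entered 1 linear model of 4 groups with 5 contrasts and empirical Bayes moderation. The threshold was P below 0.005 as in the methods, and Benjamini-Hochberg adjusted p-values over all probes are given beside it. Exact permutation tests ran over 35 splits, and correlations used 100000 resamples. Intervals are 95% and the number of arrays limits precision. The methods count 4 mice per group, but the labels name no mouse, so p-values measure the spread between these samples. Each gene is given on its probe of highest mean, and all 10 members are named. From each list the genes called between genotypes were to be named, or else those of smallest P, and the called genes of other contrasts were added after their values were seen. The 6 genes most like the members complete the rule. Of 103 list genes 92 had a probe, and of 47 marker genes 42. The scripts were tested on simulated data. Alternatives were an offset of 50, no background correction, median scaling, a detection filter, fits on 8 arrays, averaged probes, trended variances, a replicate block and each array left out. The members and lists were chosen with earlier results of these data known.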

Additional observations from a re-analysis of the deposited data

Results flagged for a closer look

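For Fos, Fosb and Egr1, all 4 young BACHD hearts lay above the mean of young WT hearts. For the same genes, all 4 aged BACHD hearts lay below the mean of aged WT hearts. These genes were picked from the members by this pattern in the same values. The share of all probes that meet it was not computed, so the pattern carries no test. For Fos the margin among young hearts was narrow, with a lowest BACHD value of 6.469 against a WT mean of 6.461. The difference of the genotype effect between ages was -1.96 for Fos (adjusted p = 0.802 in limma), -0.48 for Fosb (adjusted p = 0.761, on a probe at background) and -1.32 for Egr1 (adjusted p = 0.816), none past P below 0.005. Without the 2 aged WT arrays of highest Fos these were -0.69, -0.34 and -0.47. Of 40 sets of 1 gene in 1 group, 0 had an array far enough from the other 3 for Dixon's test to mark it.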

How the results depend on the processing

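The count of members called was 0 for BACHD against WT at both ages, for age in WT and for the difference between ages, and 1 for age in BACHD (Fosb). For age in BACHD it was 0 with only probes detected on at least 4 arrays, a filter that takes Fosb out of the test. The count was also 0 with trended and robust variances and 0 without the 4 aged arrays that had raised atrial markers. In the fit on 8 arrays it was 2, where Fos was added. With the replicate block it was 0 (Fosb -0.43, adjusted p = 0.107), and the block changed no other member's call. Whether the replicate numbers pair the arrays cannot be told from the correlation of deviations. It ran from -0.386 to 0.344 for same-number pairs and from -0.314 to 0.38 for different-number pairs between groups. Of 24 same-number pairs 7 were over 0.1, and 7 of 16 arrays correlated best with their own number. The shares to be met without pairing were not computed. Leaving out 1 array at a time gave 0 to 1 members at 3 mo, 0 to 1 at 15 mo (Fos without aged WT replicate 4, Fosb without aged BACHD replicate 2), 0 to 1 for age in BACHD and 0 to 2 for the difference between ages. Of 925 refitted member values 15 changed their call and 44 uncalled ones their sign.

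Over all probes, 230 were called at 15 mo, 1324 with age in BACHD and 157 for the difference between ages. Median scaling gave 138, 858 and 95. The detection filter left 10960 of the 25697 probes to be tested, so its counts have a smaller base. It gave 127 at 15 mo, 87 for the difference between ages, and 52 against 124 at 3 mo. Leaving out aged BACHD replicate 3 gave 443 at 15 mo and 331 for the difference, and leaving out the 4 arrays of raised atrial markers 408 and 323. Without the 2 aged WT arrays of highest Fos, 462 were called with age in WT against 711. The cause was not tested. Signal near background limits Fos, and Fosb, Ier2 and Nr4a1 cannot be read at this depth of signal.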
